A study of Mus musculus with 6 samples.

Results

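The TGF-β pathway was examined in primary hepatocytes of CCl4-treated mice through 9 genes, 3 that encode its ligands (Tgfb1, Tgfb2 and Tgfb3), 3 that encode its receptors (Tgfbr1, Tgfbr2 and Tgfbr3) and 3 Smad genes (Smad2, Smad3 and Smad7). The genes were chosen by symbol from the 34745 genes of the deposited RNA-seq files, and all 9 were found and passed the filter on low counts, as did 14417 genes in all. The 6 libraries came from male mice that were 12 weeks old, and each library is taken to be from its own mouse. All mice carried Foxa2 alleles flanked by loxP sites (FOXA2f/f). All were given CCl4 for 4 weeks, with 2 injections of 0.25 ml/kg in each week, and were killed on day 3 after the last dose. Mice of the 3 FOXA2f/f libraries (replicates 1, 2 and 4) had received AAV8-TBG-Control. Those of the 3 FOXA2H-KO libraries (replicates 1, 2 and 4) had received AAV8-TBG-Cre, in either case 2 weeks before CCl4. TBG is a hepatocyte-specific promoter, so that Cre recombinase was directed to hepatocytes and other liver cells kept Foxa2. Hepatocytes were obtained by collagenase perfusion and low-speed centrifugation, without a marker sort, and no mouse without CCl4 was sequenced.

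TGF-β ligands are secreted in a latent form and, once released, bind the type II receptor TGFBR2, which recruits and phosphorylates the type I receptor TGFBR1. TGFBR1 then phosphorylates SMAD2 and SMAD3, which enter the nucleus together with SMAD4. Betaglycan, encoded by Tgfbr3, is a co-receptor that presents ligand, and SMAD7 is an inhibitory Smad that the signal itself induces and that acts on TGFBR1. In the liver the pathway is known for driving collagen production by activated hepatic stellate cells and for restraining the growth of hepatocytes.

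Total counts were between 20983455 and 28327765 per library. Foxa2, the gene deleted by Cre, was at 19.0, 13.5 and 16.4 CPM (counts scaled to 1000000 per library after TMM normalization) in FOXA2f/f replicates 1, 2 and 4, and at 1.03, 0.762 and 1.62 CPM in FOXA2H-KO replicates 1, 2 and 4. The labels were thus borne out by the targeted gene in every library, and Foxa2 was the 1 gene of 14417 (0.00694%) with an adjusted p under 0.05 and a fold change of at least 2 (log2 fold change −3.85 with a standard error of 0.31, and an adjusted p of 0.0313 by edgeR's quasi-likelihood test). The call held without FOXA2f/f replicate 2 and was lost without any 1 of the other 5 libraries, with Foxa2 lower in every fit. A list of 9 hepatocyte markers summed to between 114900 and 166100 CPM in all libraries, with albumin (Alb) the most abundant of them. Markers of other liver cells were also measured. In FOXA2f/f replicate 2 they were at their lowest, with 12 of 12 macrophage, 11 of 12 endothelial and 8 of 12 stellate cell markers lowest in that library, whereas 29.2% of all genes tested were lowest there. In FOXA2f/f replicate 4 the markers of these cell types were at their highest, with 9 of 12 macrophage, 11 of 12 endothelial and 7 of 12 stellate cell markers highest there, against 19.5% of all genes. Other lists differed, with 5 of 6 cholangiocyte markers highest in FOXA2H-KO replicate 1 (15.5% of all genes) and 4 of 7 neutrophil markers in FOXA2f/f replicate 1 (15% of all genes). In bulk RNA, fewer cells of a type and less RNA per cell cannot be told apart. For the 9 genes, values without single libraries are given, either beside the result or as a range.

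No difference between FOXA2H-KO and FOXA2f/f hepatocytes was detected in any of the 9 genes. Of their log2 fold changes, 5 were positive and 4 negative, and the median of 0.02 stood beside −0.01 over all genes tested. They ran from −0.39 for Smad7 to 0.35 for Tgfbr3, with adjusted p-values of 0.982 to 0.999 by edgeR's quasi-likelihood test. A 2-fold difference in either direction was seen in 0 of the 9, beside 2.95% of all genes. The number of these genes called was also 0 with DESeq2, with edgeR's exact test and with limma on FPKM, and 0 of 9 had an unadjusted p under 0.05, which 5.17% of all genes had. The 2 groups overlapped in each of the 9 genes, while they did not overlap in 10.5% of all genes. The 95% interval of the fold change stayed within 2-fold in either direction for 6 genes (Tgfb1, Tgfb2, Tgfbr1, Tgfbr2, Smad2 and Smad3) and reached 2-fold for the other 3 (Tgfb3, Tgfbr3 and Smad7).

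**Figure D1:**
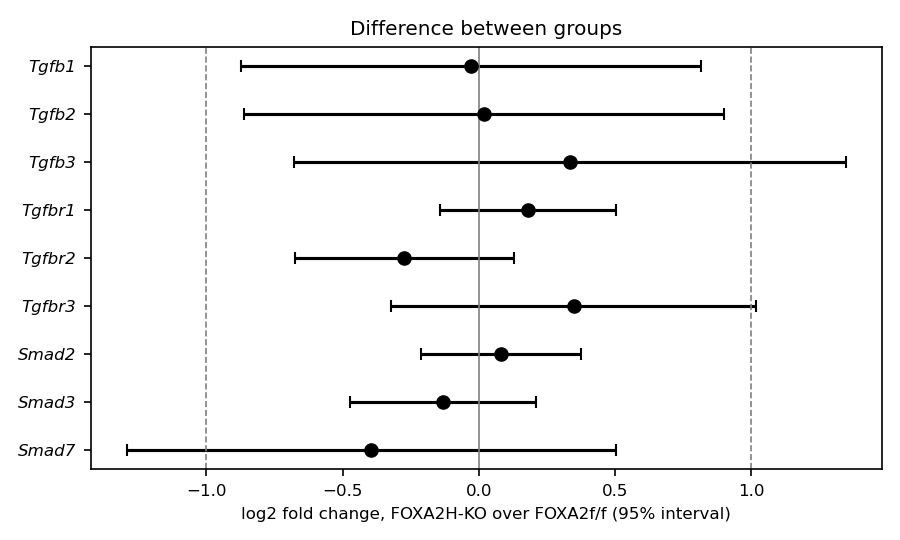
Log2 fold change of each of the 9 genes, FOXA2H-KO over FOXA2f/f (x axis), from edgeR's quasi-likelihood fit of 3 libraries per group. Points are estimates, bars are 95% intervals, and dashed lines mark a 2-fold difference. All 9 intervals hold 0, and the narrowest is that of Smad2 (−0.21 to 0.38).

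Levels of different genes were compared per length, on the authors' FPKM (fragments per kilobase of gene and 1000000 fragments). Tgfbr2 was the most abundant of the 9 with 18.4 ± 2.85 FPKM (SD over both groups, n = 6), which placed it above 89.0% of all genes tested. Its lowest library, at 15.2 FPKM, was above the highest library of Tgfbr1, the next gene, at 9.88 FPKM. Tgfbr1 was at 7.41 ± 1.49 FPKM and exceeded Tgfb1 in 6 of 6 libraries, although their ranges overlapped. Tgfb1 (3.77 ± 1.59 FPKM) and Smad2 (3.72 ± 0.418 FPKM) could not be ordered, as each was above the other in 3 of the 6 libraries. Smad3 (3.12 ± 0.463 FPKM) was below Smad2 in 6 of 6 libraries and above Smad7 (2.102 ± 0.868 FPKM) in 5 of 6. Smad7 and Tgfbr3 (2.07 ± 0.712 FPKM) again could not be ordered. The other two ligands were the least abundant genes, Tgfb3 at 1.01 ± 0.508 FPKM and Tgfb2 at 0.204 ± 0.0797 FPKM, and their ranges did not meet.

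**Figure D2:**
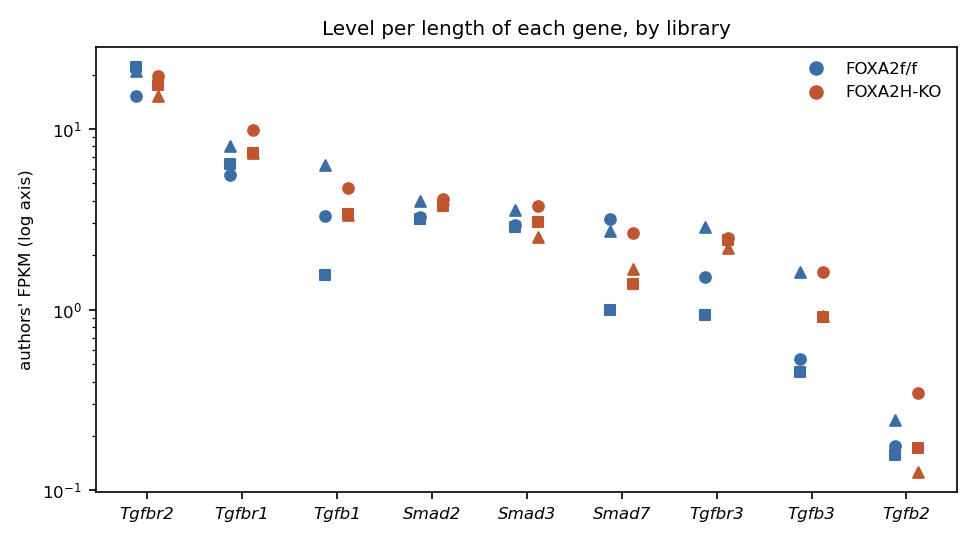
Level per length of the 9 genes in each library, as the authors' FPKM on a log axis, ordered by the mean over 6 libraries. Blue points are FOXA2f/f and orange points FOXA2H-KO libraries, with circles, squares and triangles for replicates 1, 2 and 4. Tgfbr2 lies above and Tgfb2 below all other genes in every library.

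Since FOXA2 is a transcription factor that binds DNA, the promoters of these genes were read for its known core letters. RefSeq promoter windows of 300 bases (250 before and 50 after the start of the gene, GRCm38.p6) matched 5 of the 9 genes, and Tgfb3, Tgfbr3, Smad2 and Smad7 were not analysed here. The FOXA letters searched were TGTTTAC or TGTTTGC or TATTTAC or TATTTGC, and the SMAD letters were GTCTAGAC and CAGACA. The letters GGGCGG, bound by SP1, and TGACTCA, bound by AP-1, were searched too, all on both strands, and no matches overlapped. Shown are the windows of the most abundant ligand, of the ligand that holds a FOXA match and of the most abundant receptor, 5′ to 3′ on the strand of the gene, with matches in capitals.
Tgfb1 (chr7:25686752-25687051, plus strand): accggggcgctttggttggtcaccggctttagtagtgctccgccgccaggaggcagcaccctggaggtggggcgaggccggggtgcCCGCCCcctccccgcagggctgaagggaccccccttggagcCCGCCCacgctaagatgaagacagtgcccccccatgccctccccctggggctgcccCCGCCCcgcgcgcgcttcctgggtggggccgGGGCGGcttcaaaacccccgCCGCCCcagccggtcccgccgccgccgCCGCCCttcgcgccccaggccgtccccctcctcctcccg
Tgfb2 (chr1:186705940-186706239, minus strand): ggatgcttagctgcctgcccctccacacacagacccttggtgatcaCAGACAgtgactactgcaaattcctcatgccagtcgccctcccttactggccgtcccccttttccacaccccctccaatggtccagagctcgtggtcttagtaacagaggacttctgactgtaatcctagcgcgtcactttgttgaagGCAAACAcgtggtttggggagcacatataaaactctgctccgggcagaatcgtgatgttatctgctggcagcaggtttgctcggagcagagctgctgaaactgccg
Tgfbr2 (chr9:116175314-116175613, minus strand): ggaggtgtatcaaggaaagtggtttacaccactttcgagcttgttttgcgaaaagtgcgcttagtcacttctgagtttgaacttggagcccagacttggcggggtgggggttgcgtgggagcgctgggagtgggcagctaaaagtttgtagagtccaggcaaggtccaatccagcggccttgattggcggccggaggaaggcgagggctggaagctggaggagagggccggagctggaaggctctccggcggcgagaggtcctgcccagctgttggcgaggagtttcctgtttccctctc

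The Tgfb1 window held 6 copies of GGGCGG, 5 of them on the opposite strand, and was 77% G and C, against a mean of 53.8% over 32851 promoter windows. The Tgfb2 window held 1 FOXA match (TGTTTGC on the opposite strand, from base 195) and 1 CAGACA (from base 47). The Tgfbr2 window held none of the letters searched. Of the windows not shown, those of Tgfbr1 (2 alternative starts) and Smad3 held no FOXA match. Smad3 and 1 of the Tgfbr1 windows held 2 copies of GGGCGG each, and the other Tgfbr1 window held CAGACA. Among all windows, 13.5% held a FOXA match, 0.213% GTCTAGAC, 21% CAGACA, 35.7% GGGCGG and 5.2% TGACTCA. A match gives the letters only and is no evidence that a factor bound there.

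Tgfb1 encodes TGF-β1, the ligand best known for fibrosis. Tgfb1 (ENSMUSG00000002603, GRCm38 chromosome 7, 25687002 to 25705077, plus strand) was at 20.8, 10.2 and 32.3 CPM in FOXA2f/f replicates 1, 2 and 4, and at 24.0, 19.0 and 19.3 CPM in FOXA2H-KO replicates 1, 2 and 4. Both the lowest and the highest library were FOXA2f/f, and the 3 FOXA2H-KO libraries lay between them. The means were 21.1 ± 11.1 and 20.8 ± 2.79 CPM (SD, n = 3 each), with a log2 fold change of −0.03 and a 95% interval from −0.87 to 0.82. Without FOXA2f/f replicate 2 the log2 fold change became −0.36, and without FOXA2f/f replicate 4 it became 0.41.

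Tgfb2 encodes the ligand that depends most on betaglycan for its binding. Tgfb2 (ENSMUSG00000039239, chromosome 1, 186622792 to 186705989, minus strand) had 41, 30 and 63 counts in FOXA2f/f and 76, 38 and 25 counts in FOXA2H-KO replicates 1, 2 and 4. This corresponded to 1.76, 1.64 and 2.00 CPM against 2.80, 1.52 and 1.16 CPM. Here the highest and the lowest library were both FOXA2H-KO, and the log2 fold change of 0.02 (interval −0.86 to 0.90) was −0.43 without FOXA2H-KO replicate 1. An antisense gene, Gm29491, shares 2.14% of the exonic bases of Tgfb2 and had 0 counts in every library.

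Tgfb3, the gene for the remaining ligand (ENSMUSG00000021253, chromosome 12, 86056745 to 86079041, minus strand), was at 1.98, 1.75 and 4.93 CPM in FOXA2f/f and 4.86, 3.05 and 3.15 CPM in FOXA2H-KO replicates 1, 2 and 4. FOXA2f/f replicates 1 and 2 were below all FOXA2H-KO libraries, and FOXA2f/f replicate 4 was above them. The log2 fold change was 0.34 with the widest standard error of the 9 genes (0.44). It became 0.98 without FOXA2f/f replicate 4 (unadjusted p = 0.0184, adjusted p = 0.232, edgeR's quasi-likelihood test) and 0.09 without FOXA2f/f replicate 2. Gm37804, which had 0 counts in every library, and Gm48008, not analysed here, are annotated on the opposite strand over 12.4% of its exonic bases. The span of Ttll5 (226 to 325 counts) also overlaps that of Tgfb3 without shared exonic bases, and the strand setting of the counting is not given in the sources used here.

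Within each library, Tgfb1 made up most of the ligand RNA. Of the summed FPKM of the 3 ligands, Tgfb1 accounted for 82.4%, 71.9% and 77.1% in FOXA2f/f and for 70.7%, 75.7% and 76.2% in FOXA2H-KO replicates 1, 2 and 4. The Tgfb3 share was 18.0% ± 4.17 in FOXA2f/f and 21.9% ± 1.99 in FOXA2H-KO (SD, n = 3 each, exact two-sided permutation test, p = 0.2, where 0.1 is the smallest p that 3 libraries against 3 allow). The Tgfb2 share stayed between 2.87% and 7.28%. The ligand total ranged from 2.16 to 8.14 FPKM, and both of these extremes were FOXA2f/f libraries.

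**Figure D3:**
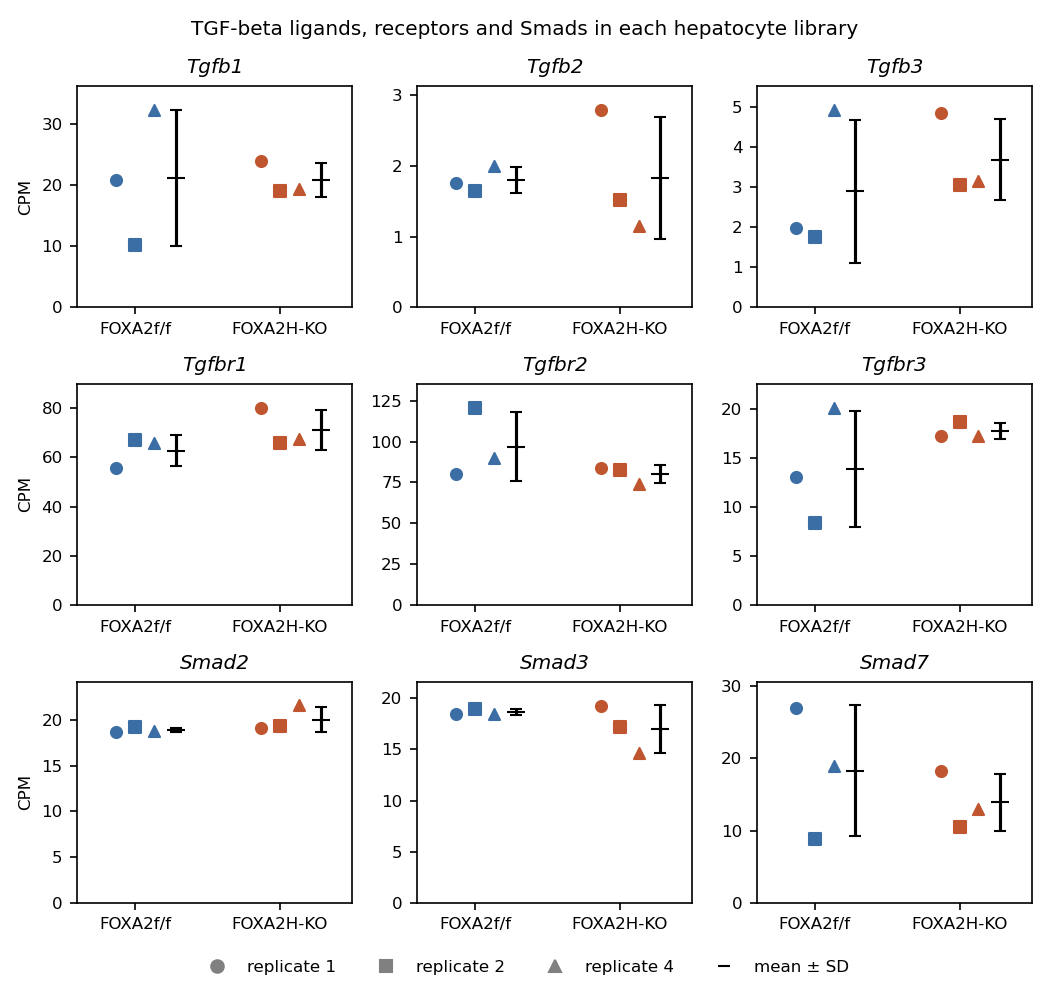
CPM of each of the 9 genes (y axis, starting at 0) in FOXA2f/f (blue) and FOXA2H-KO (orange) libraries. Circles, squares and triangles are replicates 1, 2 and 4, and the bars beside them give the mean ± SD of 3 libraries. Tgfb1, Tgfb3, Tgfbr3 and Smad7 spread widely among the FOXA2f/f libraries, while Smad2 and Smad3 lie close together there (18.7 to 19.2 and 18.4 to 19.0 CPM).

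Tgfbr1, the gene for the type I receptor and kinase (ENSMUSG00000007613, chromosome 4, 47353222 to 47414931, plus strand), was at 55.5, 67.0 and 65.9 CPM in FOXA2f/f and 80.3, 65.7 and 67.3 CPM in FOXA2H-KO replicates 1, 2 and 4. The group means were 62.8 ± 6.34 and 71.1 ± 7.99 CPM. FOXA2H-KO replicate 1 was above every other library, and the other two FOXA2H-KO libraries were within 2 CPM of FOXA2f/f replicates 2 and 4. Its log2 fold change was 0.18 (interval −0.14 to 0.50) and 0.08 without FOXA2H-KO replicate 1.

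Tgfbr2, the gene for the ligand-binding type II receptor (ENSMUSG00000032440, chromosome 9, 116084293 to 116175360, minus strand), was at 80.1, 121 and 89.7 CPM in FOXA2f/f and 83.9, 82.6 and 73.8 CPM in FOXA2H-KO replicates 1, 2 and 4. FOXA2f/f replicate 2 was the highest library, and FOXA2f/f replicate 1 was below FOXA2H-KO replicates 1 and 2. With means of 96.9 ± 21.3 and 80.1 ± 5.50 CPM, the log2 fold change was −0.27 (interval −0.68 to 0.13), and −0.08 without FOXA2f/f replicate 2. This gene had the smallest unadjusted p of the 9, 0.156.

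Because the type I and type II receptors act as one complex, the ratio of Tgfbr2 to Tgfbr1 FPKM was taken in each library, a quantity that no scaling between libraries can alter and that was chosen with the values known. It was 2.75, 3.44 and 2.60 in FOXA2f/f replicates 1, 2 and 4 and 1.99, 2.40 and 2.09 in FOXA2H-KO replicates 1, 2 and 4. All FOXA2H-KO libraries were below all FOXA2f/f libraries, with means of 2.16 ± 0.211 and 2.93 ± 0.450 (SD, n = 3 each, exact permutation test, two-sided, p = 0.1, which is the lowest that 3 against 3 libraries can give). The FOXA2H-KO mean was 0.738 times the FOXA2f/f mean, and between 0.697 and 0.808 times in the 6 repeats that left 1 library out. As the groups did not overlap, no such repeat could reach 1, so that this range is no further support. The ratio was 1 of 9 such shares, sums and ratios compared, and the other 8 had groups that overlapped. Over all genes tested, 10.5% had groups without overlap, which is a rate for CPM of single genes. No such rate was taken for ratios of genes.

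Tgfbr3, which encodes betaglycan (ENSMUSG00000029287, chromosome 5, 107106570 to 107289629, minus strand), was at 13.1, 8.39 and 20.1 CPM in FOXA2f/f and 17.2, 18.7 and 17.2 CPM in FOXA2H-KO replicates 1, 2 and 4. As for Tgfb1, FOXA2f/f replicates 2 and 4 were the lowest and the highest library, with the FOXA2H-KO libraries close to each other in between. The log2 fold change was 0.35 (interval −0.32 to 1.02). It was 0.72 without FOXA2f/f replicate 4 (unadjusted p = 0.0103, adjusted p = 0.214, edgeR's quasi-likelihood test) and 0.09 without FOXA2f/f replicate 2. Gm43422, annotated on the same strand, shares 4.54% of its exonic bases and had between 0 and 6 counts.

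The receptor-activated Smads were the steadiest of the genes. Smad2 (ENSMUSG00000024563, chromosome 18, 76241580 to 76310963, plus strand) was at 18.7, 19.2 and 18.8 CPM in FOXA2f/f and 19.2, 19.3 and 21.6 CPM in FOXA2H-KO replicates 1, 2 and 4. The within-group SD of its log2 CPM was 0.07, smaller than that of all but 2.32% of genes tested. Its log2 fold change was 0.08 (interval −0.21 to 0.38).

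Smad3 (ENSMUSG00000032402, chromosome 9, 63646767 to 63757994, minus strand) was at 18.5, 19.0 and 18.4 CPM in FOXA2f/f and 19.2, 17.2 and 14.6 CPM in FOXA2H-KO replicates 1, 2 and 4. The FOXA2H-KO libraries held both the highest and the lowest value, and the log2 fold change was −0.13 (interval −0.47 to 0.21). On the FPKM scale Smad2 was 1.10, 1.10 and 1.11 times Smad3 in the FOXA2f/f libraries and 1.09, 1.23 and 1.61 times in the FOXA2H-KO libraries (exact two-sided permutation test of 3 against 3, p = 0.4).

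Smad7, the feedback inhibitor (ENSMUSG00000025880, chromosome 18, 75367529 to 75395935, plus strand), was at 27.0, 8.88 and 18.9 CPM in FOXA2f/f and 18.2, 10.5 and 13.04 CPM in FOXA2H-KO replicates 1, 2 and 4. FOXA2f/f replicates 1 and 2 were its highest and lowest library, 3.04-fold apart. With means of 18.3 ± 9.09 and 13.9 ± 3.94 CPM it had the lowest log2 fold change of the 9 genes, −0.39 (interval −1.29 to 0.50). The value was −0.72 without FOXA2f/f replicate 2 (unadjusted p = 0.0271, adjusted p = 0.762, edgeR's quasi-likelihood test) and 0.01 without FOXA2f/f replicate 1. Its within-group SD of log2 CPM, 0.64, was larger than that of 86.4% of genes tested, and those of Tgfb3 (0.62) and Tgfb1 (0.61) were close to it.

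Set side by side over the 6 libraries, the genes fell into different patterns. Tgfb1, Tgfb3 and Tgfbr3 were each lowest in FOXA2f/f replicate 2 and highest in FOXA2f/f replicate 4. The summed markers of stellate cells (1133 to 2958 CPM), endothelial cells (336.8 to 1142 CPM) and macrophages (674.4 to 3086 CPM) had their lowest and highest values in these same libraries. In FOXA2H-KO libraries the sums were between 1752 and 2722, 632.7 and 753.5, and 1497 and 2380 CPM. The log2 fold change was above 0 in 10 of 12 stellate cell, 6 of 12 endothelial and 10 of 12 macrophage markers (medians 0.22, −0.001 and 0.32). It was above 0 in 1 of 9 hepatocyte markers (median −0.12), beside 47.8% of all genes. The smallest adjusted p in these 4 lists was 0.915 by edgeR's quasi-likelihood test. All 36 markers of stellate cells, endothelial cells and macrophages had counts, none at 0, and their part in the values of Tgfb1, Tgfb3 and Tgfbr3 was not tested.

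Tgfbr2 was highest in FOXA2f/f replicate 2, the library in which 6 of 9 hepatocyte markers were highest as well, as were 29.7% of all genes tested. It was no mirror image of Tgfb1, Tgfb3 and Tgfbr3, as only FOXA2f/f replicate 2 was above its 89.7 CPM in FOXA2f/f replicate 4. Its lowest library was FOXA2H-KO replicate 4 (73.8 CPM), where the summed hepatocyte markers were above their mean (0.09 in centred log2 CPM). Smad7 had a profile of its own, and so did the neutrophil markers, which summed to 99.8, 11.0 and 70.6 CPM in FOXA2f/f and to 28.1, 31.1 and 20.4 CPM in FOXA2H-KO replicates 1, 2 and 4, highest and lowest in the same libraries as Smad7. Of 8 neutrophil markers, 7 were tested, and their log2 fold change was below 0 in 5 and above 0 in 2. An unadjusted p under 0.05 was reached by 4 of the 7, all lower in FOXA2H-KO, where 3.18% of all genes were. Groups without overlap were found for 1 of the 7, lower in FOXA2H-KO, beside 5.96% of all genes. The smallest adjusted p of the 7 was 0.65 by edgeR's quasi-likelihood test, and Ly6g had 0 counts in FOXA2f/f replicate 2 and FOXA2H-KO replicate 2. Of the other lists, 7 cholangiocyte markers summed to 174 to 367.6 CPM in FOXA2f/f and 252.2 to 708 CPM in FOXA2H-KO. All 6 of these that were tested had a positive log2 fold change (median 0.82), as had 47.8% of all genes. An unadjusted p under 0.05 was reached by 2 of the 6, beside 1.98% of all genes that reached it and were higher in FOXA2H-KO. Groups without overlap were found for 2 of the 6, beside 4.54% of all genes without overlap and higher in FOXA2H-KO. The smallest adjusted p of the 6 was 0.941 by edgeR's quasi-likelihood test. In the 2 groups, 10 lymphocyte markers summed to 19.4 to 83.9 and 43.8 to 74.5 CPM, and 5 platelet markers to 3.95 to 13.03 and 8.37 to 12.8 CPM. The part of these cells in the values of the 9 genes was not tested.

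**Figure D4:**
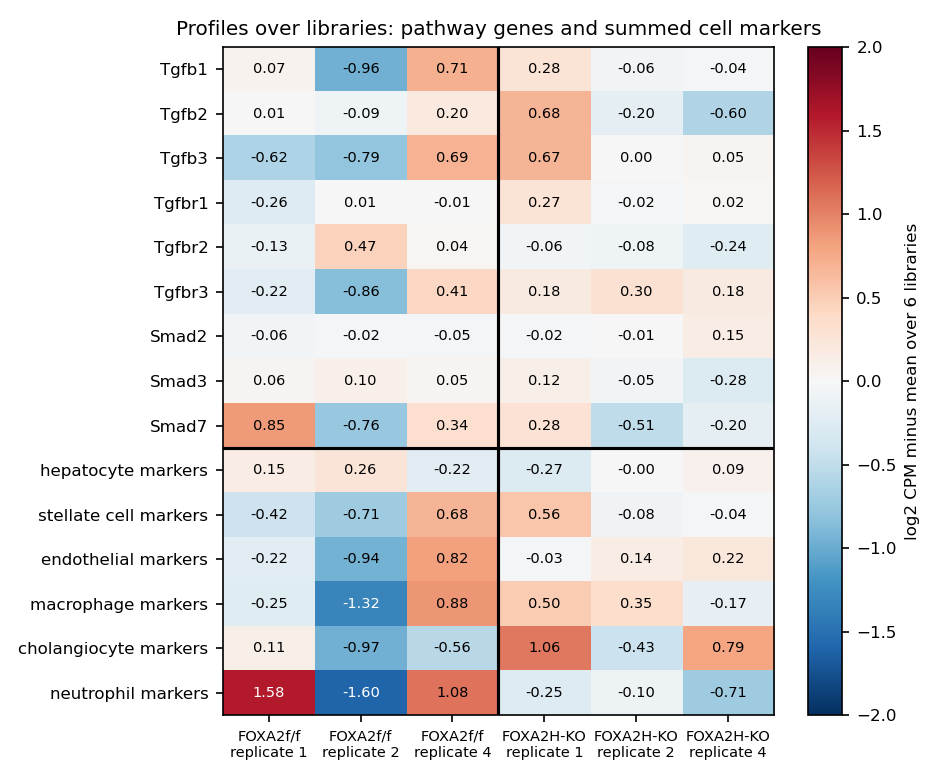
Log2 CPM minus the mean over 6 libraries for the 9 genes (upper rows) and for the summed CPM of 6 lists of cell markers (lower rows), by library. Red is above and blue below the mean. Tgfb1 was at −0.96 and 0.71 in FOXA2f/f replicates 2 and 4, and the macrophage markers at −1.32 and 0.88, whereas Smad2 stayed between −0.06 and 0.15.

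For each gene, the genes with the most similar profile were taken as those with the smallest mean absolute difference in centred log2 CPM over the 6 libraries, which share depth and preparation. For Tgfb1 these were Thbs3, which encodes a thrombospondin (0.06), and Arhgdib (0.07). For Tgfb2 they were Arhgap28 (0.07) and Plekhn1 (0.09), and for Tgfb3 they were Ticam2, a Toll-like receptor adaptor (0.07), and Col3a1, a fibrillar collagen of stellate cells (0.08). Tgfbr1 was nearest to Cadm1 and Nptn, both cell adhesion genes (0.04 each), Tgfbr2 to Ttc13 and Abcb10 (0.05 each), and Tgfbr3 to Endod1 (0.04) and Syp (0.05). Smad2 was nearest to Senp3 and Dync1li1 (0.01 each), Smad3 to Gm37385 (0.02) and Scaper (0.03), and Smad7 to Lrp8, an apolipoprotein E receptor (0.09), and Atxn7l2 (0.11). Among the 9 themselves, the best rank was that of Smad3 in the ranking for Tgfb2 (489, at a difference of 0.22), and the smallest difference was that of Tgfbr1 and Smad2 (0.12).

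The other genes of the pathway were read from 7 lists arranged by role, with 83 genes, all in the files and 81 of them tested (Itgb6 and Tgif2 were not). The number called by edgeR's quasi-likelihood test was 0, as it was by DESeq2, edgeR's exact test and limma. The log2 fold change was above 0 in 52 and below 0 in 29, with a median of 0.09, while 47.8% of all genes were above 0. An unadjusted p under 0.05 was reached by 3 of 81 genes (3.70%, beside 5.17% of all genes), 1 of them higher and 2 lower in FOXA2H-KO, where 1.98% and 3.18% of all genes were. Groups without overlap were found for 4 genes (4.94%, beside 10.5% of all genes), 1 of them higher and 3 lower, where 4.54% and 5.96% of all genes were. Both shares were below those of all genes, and whether they differed from them was not tested.

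Among genes that hold the ligand latent or release it, 9 of 14 were above 0 (median 0.10). Itgav, the αv integrin chain that activates latent TGF-β, was at 55.9 ± 5.23 and 69.1 ± 15.2 CPM (SD, n = 3 each), and its log2 fold change of 0.31 was 0.11 without FOXA2H-KO replicate 1. Its partner chain Itgb8 had a log2 fold change of 0.80 that became −0.05 without FOXA2H-KO replicate 1. Ltbp1, a latent TGF-β binding protein, had one of 0.39 that was 1.06 without FOXA2f/f replicate 4 and 0.03 without FOXA2f/f replicate 2. Of the 5 extracellular inhibitors, 4 were above 0 (median 0.15). Vasn, which traps TGF-β, was at 19.3 ± 3.45 and 15.7 ± 1.59 CPM, and its log2 fold change of −0.30 was −0.14 without FOXA2f/f replicate 2. The stellate cell proteoglycan Bgn was at 218 ± 146 and 251 ± 35.9 CPM. Its log2 fold change of 0.21 was −0.10 without FOXA2f/f replicate 2 and 0.90 without FOXA2f/f replicate 4 (unadjusted p = 0.00303, adjusted p = 0.201, edgeR's quasi-likelihood test). Cd109 was below 2 CPM in every library, and its log2 fold change of 0.77 was 1.47 without FOXA2f/f replicate 4 and 0.25 without FOXA2H-KO replicate 1. All of these values shifted in size without single libraries, and those of Itgb8 and Bgn changed sign. The others kept their sign, with ranges of 0.11 to 0.41 for Itgav, 0.03 to 1.06 for Ltbp1, −0.38 to −0.14 for Vasn and 0.25 to 1.47 for Cd109.

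All 7 accessory receptors and adaptors were above 0 by small amounts (0.00 to 0.20, median 0.04). They include the endothelial co-receptor Eng (84.7 ± 48.3 and 91.5 ± 8.39 CPM, log2 fold change 0.11), the endocytic adaptor Dab2 (0.20, but −0.06 and 0.55 without FOXA2f/f replicates 2 and 4) and Zfyve9, which brings SMAD2 to the receptor (0.03, but 0.22 and −0.11 without the same replicates). Eng is also one of the 12 endothelial markers, and its value was −0.15 without FOXA2f/f replicate 2 and 0.68 without FOXA2f/f replicate 4 (unadjusted p = 0.00287, adjusted p = 0.201, edgeR's quasi-likelihood test). Of SMAD4 and its nuclear partners, 4 of 5 were above 0 (median 0.11). Smad4 was at 30.4 ± 3.58 and 34.3 ± 3.46 CPM (0.17), and Trim33, a cofactor of SMAD2 and SMAD3, at 27.6 ± 4.30 and 29.7 ± 2.81 CPM (0.11). Sp1, a general transcription factor, was at 57.0, 52.9 and 55.4 CPM in FOXA2f/f and 60.0, 64.2 and 66.1 CPM in FOXA2H-KO replicates 1, 2 and 4. Its groups did not overlap, at a log2 fold change of 0.20 with an adjusted p of 0.957 by edgeR's quasi-likelihood test.

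Of the intracellular inhibitors, 6 of 11 were above 0 (median 0.01). Skil, which encodes the Smad repressor SnoN and is itself induced by TGF-β, was at 28.4, 21.7 and 33.3 CPM in FOXA2f/f and 39.9, 32.6 and 46.8 CPM in FOXA2H-KO replicates 1, 2 and 4. Only FOXA2f/f replicate 4 and FOXA2H-KO replicate 2 overlapped, and the log2 fold change was 0.51 ± 0.20 (standard error, unadjusted p = 0.0352, adjusted p = 0.918, edgeR's quasi-likelihood test). Pmepa1, another inhibitor induced by the signal, had a log2 fold change of 0.48 that was 0.91 without FOXA2f/f replicate 4 and 0.15 without FOXA2f/f replicate 2. Strap, which binds the type I receptor with SMAD7, had one of −0.16 that was −0.02 without FOXA2f/f replicate 2.

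Of 18 genes known to respond to TGF-β, 11 were above 0 (median 0.19), and 5 of these 18 (Col1a1, Col1a2, Col3a1, Acta2 and Timp1) are also markers of stellate cells. The genes with the smallest p in this list lay in the opposite direction. Klf10, an early TGF-β response gene, was at 89.3, 39.0 and 42.6 CPM in FOXA2f/f and 27.1, 20.9 and 27.7 CPM in FOXA2H-KO replicates 1, 2 and 4. No library overlapped, and the log2 fold change was −1.17 ± 0.32 (standard error, unadjusted p = 0.00682, adjusted p = 0.689, edgeR's quasi-likelihood test). It was −0.68 without FOXA2f/f replicate 1, and the smallest adjusted p in any setting was 0.07, with DESeq2.

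Bhlhe40, a transcriptional repressor, was at 251, 118 and 139 CPM in FOXA2f/f and 103, 86.6 and 91.4 CPM in FOXA2H-KO replicates 1, 2 and 4, again without overlap. Its log2 fold change of −0.86 (unadjusted p = 0.0157, adjusted p = 0.812, edgeR's quasi-likelihood test) was −0.45 without FOXA2f/f replicate 1. Both genes were highest in FOXA2f/f replicate 1, as was Smad7. The fibronectin gene Fn1, chosen after its values were seen, was the remaining gene without overlap, at 2212 ± 275 and 1764 ± 199 CPM (log2 fold change −0.33, adjusted p = 0.983, edgeR's quasi-likelihood test). Cdkn1a, the p21 cell cycle inhibitor, was at 42.9 ± 14.2 and 67.1 ± 24.2 CPM (0.65, and 0.32 without FOXA2H-KO replicate 4).

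The BMP and activin arm of the family, which signals through related receptors, had 11 of 21 genes above 0 (median 0.02) and none with an unadjusted p under 0.05. Inhba, which encodes the activin A subunit, was at 14.6, 25.1 and 8.52 CPM in FOXA2f/f and 7.17, 8.14 and 11.0 CPM in FOXA2H-KO replicates 1, 2 and 4. The groups overlapped, and the log2 fold change of −0.87 was −0.39 without FOXA2f/f replicate 2 and −1.17 without FOXA2f/f replicate 4. Inhbc, a hepatocyte activin subunit, was at 32.8 ± 8.98 and 23.7 ± 6.75 CPM (−0.46, and −0.21 without FOXA2f/f replicate 2), and the BMP type II receptor Bmpr2 at 62.8 ± 8.99 and 70.9 ± 6.13 CPM (0.17).

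**Figure D5:**
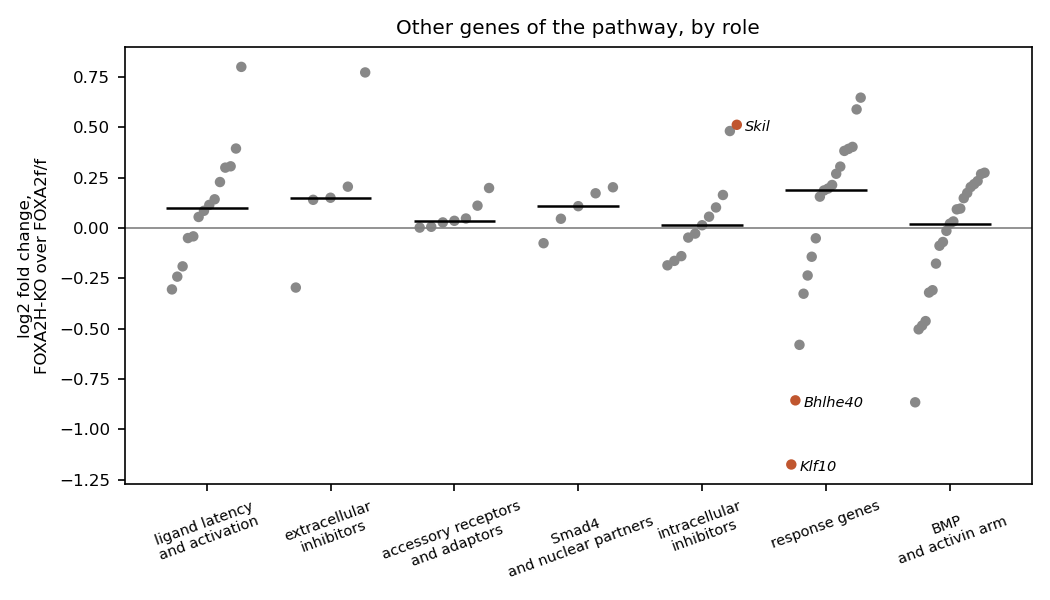
Log2 fold change, FOXA2H-KO over FOXA2f/f (y axis), of the 81 tested genes of the pathway other than the 9, in 7 lists by role. Each point is a gene, lines are medians, and orange points with names had an unadjusted p under 0.05 (Skil, Bhlhe40 and Klf10). The medians lie between 0.01 and 0.19.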

How the data were processed

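RNA-seq libraries were made from poly-A RNA of hepatocytes (paired-end TruSeq), 3 per group. The authors deposited, for 34745 Ensembl genes, whole-number counts without normalization and FPKM values. The deposited FPKM follow from the counts: with depth removed, the gene length they imply differed between libraries by a relative 8.9e-06 at most (9339 genes). The submitters' processing notes name CASAVA 1.8, TopHat2 2.1.0, HTSeq, edgeR and mm10. The annotation release and the strand setting are not given in the sources used here.

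The count tests used edgeR 4.0.16 in R 4.3.3 (TMM, filterByExpr, quasi-likelihood test, Benjamini-Hochberg adjustment over 14417 genes). The standard error is the log2 fold change divided by the square root of F, and 95% intervals use its t quantile. A gene was called at an adjusted p under 0.05 and a fold change of at least 2, and the group was the only term. Alternatives were DESeq2 1.42.0, limma 3.58.1 on log2(FPKM + 1) and log2(FPKM + 0.1) at a mean FPKM of at least 1, edgeR's exact test, other scalings and filters, a replicate block and each library left out. Libraries share the numbers 1, 2 and 4, but deviations of same-numbered libraries correlated at −0.07, 0.03 and −0.23, so that they were not paired. That each library came from its own mouse is assumed, as the paper's methods do not state it. Symbols and positions are from GENCODE M21 (GRCm38), and 34267 genes had a symbol.

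The 9 genes and all lists were chosen with earlier results of these data known. The lists were written by hand from general knowledge. The genes named are Foxa2, the 9 genes, from each pathway list up to 3 genes with the smallest unadjusted p, and for each of the 9 the 2 most similar profiles in log2 CPM (prior count 2), with Fn1 added after its values were seen.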

Additional observations from a re-analysis of the deposited data

How the results depend on the processing

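Of the 9 genes, 0 were called in any of 15 refitted settings. In the main fit 0 were called without a fold threshold, and 0 had an unadjusted p under 0.05. An unadjusted p under 0.05 was reached by 1 of the 9 without FOXA2f/f replicate 2 and by 2 without FOXA2f/f replicate 4. The share of all genes under 0.05 was not taken in these fits, so that the counts have no background. Without FOXA2f/f replicate 4, Pmepa1 had an unadjusted p of 0.0366 and an adjusted p of 0.274 (edgeR's quasi-likelihood test). For Skil in the main fit these were 0.0352 and 0.918, so small p-values were more common over all genes without FOXA2f/f replicate 4. Over the 81 other pathway genes, the number called was 0 in the 15 settings and in the main fit without a fold threshold. With unadjusted p-values and no fold threshold it was 3 in the main fit. Library size alone, in place of TMM, moved the median of all genes from −0.01 to 0.10 and that of the 9 genes from 0.02 to 0.15, and 6 rather than 5 of the 9 were above 0. The log2 fold change of Tgfb1 (−0.03) changed sign to 0.036 with library size alone, 0.15 and 0.23 with limma on log2(FPKM + 1) and log2(FPKM + 0.1), and 0.11 with the replicate block. That of Tgfb2 changed sign to −0.065 with the replicate block, which changed no call among the 9. Tgfb2 was below the filter of limma on FPKM.

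Over the 6 fits without 1 library, the log2 fold change ranged from −0.36 to 0.41 for Tgfb1, −0.43 to 0.27 for Tgfb2, −0.72 to 0.0056 for Smad7, −0.049 to 1.15 for Itgb8, −0.10 to 0.90 for Bgn, −0.069 to 0.55 for Dab2, −0.15 to 0.68 for Eng and −0.11 to 0.22 for Zfyve9, all with a change of sign. The other 6 of the 9 genes kept their sign, with ranges of 0.09 to 0.98 for Tgfb3, 0.08 to 0.23 for Tgfbr1, −0.38 to −0.08 for Tgfbr2, 0.09 to 0.72 for Tgfbr3, 0.03 to 0.11 for Smad2 and −0.23 to −0.03 for Smad3. A setting that leaves 2 libraries in a group has less power. The cause of these shifts was not tested. Foxa2 kept a log2 fold change between −4.17 and −1.95 in all settings, but passed the call in 1 of 6 fits without a library (without FOXA2f/f replicate 2) and in 5 of the 9 others. Over all genes 1 was called, against 73 with DESeq2, 64 with edgeR's exact test, 2 without the filter, 0 with library size alone, limma or the block, and 0 to 6 without 1 library. Of the 9 genes, Tgfb2 and Tgfb3 had the fewest counts, 25 to 155 per library. Settings for Foxa2, the pathway genes and the receptor ratio were added after seeing the data.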
